A study of Mus musculus with 30 samples.

Results

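The genes described here are 10 mouse genes of the NRF2 antioxidant pathway: Nfe2l2, Hmox1, Nqo1, Gclc, Gclm, Gsr, Txnrd1, Srxn1, Prdx1 and Osgin1. They were found by name, as the rows of the 2 deposited raw count tables whose gene symbol is one of these, and the list of names was drawn up with earlier results of these data known. All 10 were found among the 24063 genes of the macrophage table and among the 24453 genes of the hepatocyte table. All 10 had enough reads to be tested in both cell types.

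The series sequenced polyadenylated RNA from 2 kinds of mouse cells in culture: macrophages drawn to a site by thioglycollate, an irritant, and primary hepatocytes. The ligands act on the liver X receptors (LXR), nuclear receptors that sense sterols. Desmosterol, a sterol on the way to cholesterol, was given at 10 uM. DMHCA and MePipHCA, both cholenamides, and GW3965 and T0901317 were each given at 1 uM. GW3965 and T0901317 are synthetic agonists of these receptors, and the term is used here as a short name for that pair. Vehicle is labelled DMSO / EtOH. Exposure lasted between 18 and 20 h. Each of the 6 macrophage groups had 3 libraries and each of the 6 hepatocyte groups had 2, 30 in all. Every group, vehicle included, first spent 24 h with mevastatin (10 uM), which blocks sterol synthesis, and mevalonate (50 uM), in medium whose 10% serum lacked lipids. Macrophages were kept in RPMI and hepatocytes in Hepatozyme, and the sample titles carry a different date for each cell type, so cell type, medium and date cannot be told apart. The labels used here do not say whether libraries of a group came from separate animals or cultures.

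NRF2, the product of Nfe2l2, is a transcription factor that KEAP1 marks for degradation in unstressed cells. Oxidants and electrophiles act on KEAP1, NRF2 builds up, pairs with a small MAF protein and binds antioxidant response elements near genes for glutathione synthesis, thioredoxin recycling, heme breakdown and quinone reduction. BACH1 competes for many of the same elements, and Hmox1 is known as a gene under its control. In macrophages and liver the pathway is known for its part in handling oxidants, heme and drugs.

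Sequences before the start site were looked at because the pathway is defined by such elements. RefSeq promoter windows of the build GRCm38.p6, the 250 bases before each start, were given for 7 of the 10 genes (Nfe2l2, Nqo1, Gclm, Txnrd1 with 3 starts, Srxn1, Prdx1 and Osgin1). Both strands were searched for TGACNNNGC, the core of the antioxidant response element, and for the related TGAGNNNGC. The spellings differ at the fourth base, so a stretch matches at most one of them on a given strand. A match to either was found in 6 of the 9 windows, and in 6 of the 7 genes, all but Nqo1. Of all 32851 windows of that length in the table, 10.2% held TGACNNNGC, 14.4% held TGAGNNNGC and 23% held at least one. The windows of 4 genes follow, because Osgin1 and Txnrd1 are the 2 genes that rose with all 5 ligands in macrophages, and Prdx1 and Srxn1 did not. Each is written from 5′ to 3′ on the gene's strand, which is the plus strand for all 4, with the matching bases in capitals (a match on the minus strand appears as its reverse complement).
Osgin1, chr8:119436897-119437146: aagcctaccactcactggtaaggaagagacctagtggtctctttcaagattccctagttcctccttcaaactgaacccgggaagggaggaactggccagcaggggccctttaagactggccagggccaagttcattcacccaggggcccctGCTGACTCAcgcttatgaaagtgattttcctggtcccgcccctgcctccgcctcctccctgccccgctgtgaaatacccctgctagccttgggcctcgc
Txnrd1, chr10:82858956-82859205: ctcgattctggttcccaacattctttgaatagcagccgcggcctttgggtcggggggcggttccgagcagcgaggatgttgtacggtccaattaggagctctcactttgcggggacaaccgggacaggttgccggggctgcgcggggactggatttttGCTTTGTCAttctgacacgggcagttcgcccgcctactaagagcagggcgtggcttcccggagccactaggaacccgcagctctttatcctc
Prdx1, chr4:116685349-116685598: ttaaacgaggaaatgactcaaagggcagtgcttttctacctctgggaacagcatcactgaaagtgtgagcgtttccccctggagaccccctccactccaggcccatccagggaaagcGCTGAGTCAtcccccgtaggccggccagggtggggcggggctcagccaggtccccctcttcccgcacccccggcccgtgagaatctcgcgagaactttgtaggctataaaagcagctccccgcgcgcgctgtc
Srxn1, chr2:152105274-152105523: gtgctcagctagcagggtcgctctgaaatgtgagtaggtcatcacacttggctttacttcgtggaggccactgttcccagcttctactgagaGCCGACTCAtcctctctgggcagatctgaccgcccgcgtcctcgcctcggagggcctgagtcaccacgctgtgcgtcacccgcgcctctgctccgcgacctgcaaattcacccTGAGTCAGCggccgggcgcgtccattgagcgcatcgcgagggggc
Osgin1 and Srxn1 hold the same letters, TGAGTCAGC, 99 bases before the start in Osgin1 and 45 in Srxn1, which has a second match (TGAGTCGGC) 158 bases before its start. Prdx1 holds TGACTCAGC at 133 and Txnrd1 holds TGACAAAGC at 92. Gclm holds TGACGGTGC at 134 bases and Nfe2l2 holds TGACTCCGC at 240. For Nfe2l2 alone, a stretch just after the start was not found in the annotated transcripts of the gene. The Txnrd1 window printed precedes the start used in the hepatocyte table, and the other 2 Txnrd1 windows held no match, among them the one before the start used in the macrophage table (chr10:82860091-82860340). Genes that rose and genes that fell both had a match, and a match describes these letters only, not binding.

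Levels of different genes were compared per length, with the deposited RPKM (reads scaled by transcript length and library size), in the vehicle libraries. In macrophages Prdx1, a peroxiredoxin that reduces peroxides, was highest at 459 RPKM ± 18.1 (SD, n = 3), followed by Hmox1 at 227 ± 6.07 and Nfe2l2 at 163 ± 10.8. Srxn1 at 86.0 ± 2.72 and Txnrd1 at 82.4 ± 3.83 came next and lay within their spread of each other, then Gsr at 63.0 ± 2.07, Gclm at 26.1 ± 2.07, Gclc at 12.9 ± 0.845 and Osgin1 at 7.81 ± 1.11. Nqo1 was last at 0.915 ± 0.443 RPKM. Hepatocytes had another order. Hmox1 led at 514 RPKM ± 0.636 (SD, n = 2), Prdx1 at 463 ± 33.9 and Osgin1 at 327 ± 3.46 followed. Next were Srxn1 at 196 ± 27.8, Gsr at 176 ± 6.43, Gclc at 156 ± 20.1 and Txnrd1 at 142 ± 5.16, each within the spread of its neighbour, then Nfe2l2 at 91.6 ± 3.63, Gclm at 53.6 ± 3.36 and Nqo1 at 5.84 ± 1.79. The ratio of hepatocyte to macrophage RPKM was 41.9 for Osgin1, 12.1 for Gclc and 6.38 for Nqo1, but 1.01 for Prdx1 and 0.561 for Nfe2l2. The RPKM tables of the cell types were scaled separately, so these ratios carry no test.

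**Figure D1:**
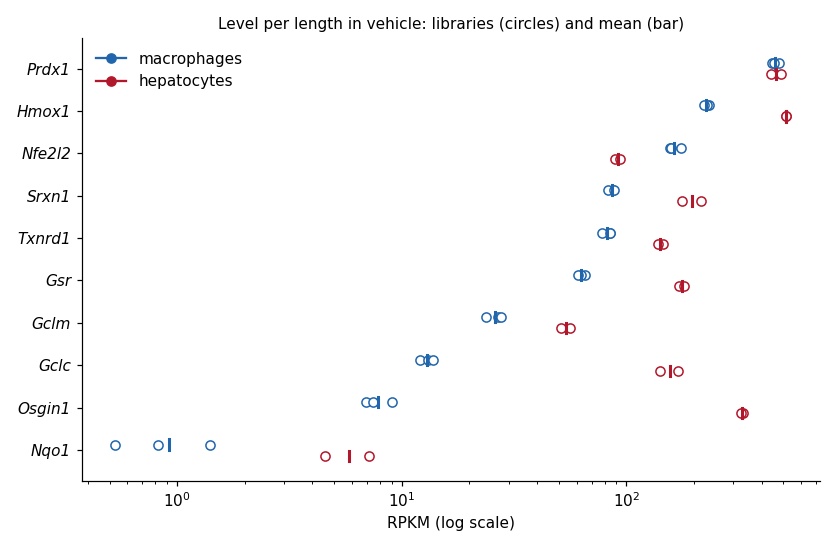
RPKM on a log axis for each of the 10 genes in the vehicle libraries of macrophages (3, blue) and hepatocytes (2, red), with circles for libraries and bars for means. The cell types overlap at Prdx1 and lie farthest apart at Osgin1, with means of 7.81 and 327 RPKM.

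Against vehicle in macrophages, each ligand raised 3 of the 10 genes, and the 4 ligands other than desmosterol also lowered 3 or 4. A gene is called raised or lowered here when its Benjamini-Hochberg adjusted p over all tested genes was under 0.05. Osgin1 and Txnrd1 rose with all 5 ligands, Hmox1 rose with 4 and Gclc with MePipHCA. Nfe2l2, Gclm and Prdx1 each fell with DMHCA, MePipHCA, GW3965 and T0901317, Srxn1 with GW3965 and T0901317, and Gsr with MePipHCA. The 5 comparisons share the vehicle libraries, so they are not independent of each other. With desmosterol 3 genes rose and 0 fell, where 4.93% of all genes rose and 4.57% fell. By DESeq2 too, 3 were called with desmosterol, and 4 of the 10 had an unadjusted p under 0.05. With DMHCA 3 rose and 3 fell, against 5.8% and 5.9% of all genes. MePipHCA raised 3 and lowered 4, against a wider background of 17.2% raised and 18.3% lowered. GW3965 raised 3 and lowered 4, against 6.54% and 6.69%, and T0901317 raised 3 and lowered 4, against 6.29% and 6.55%. The median log2 fold change of the 10 genes was 0.05, 0.09, -0.15, -0.07 and -0.09 for desmosterol, DMHCA, MePipHCA, GW3965 and T0901317, beside all-gene medians between -0.0028 and 0.0034.

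In hepatocytes, with 2 libraries per group, fewer of the genes were called. With desmosterol 0 of the 10 rose and 1 fell, Hmox1, where 0.205% of all genes rose and 0.159% fell. DMHCA called 0 of the 10 genes, and the background was 0% raised and 0% lowered: by edgeR's quasi-likelihood test none of 13176 genes passed, 615 had an unadjusted p under 0.05, and DESeq2 called 0. Of the 10 genes, 4 had such an unadjusted p with DMHCA. MePipHCA lowered 2, Hmox1 and Gclc, and raised 0, against 1.38% lowered and 0.789% raised. GW3965 raised 1, Osgin1, against 0.364%, and lowered 0, against 0.114%. T0901317 raised 2, Osgin1 and Srxn1, against 0.486%, and lowered 0, against 0.455%. At an unadjusted p under 0.05, desmosterol had 7 genes, MePipHCA 3, GW3965 3 and T0901317 4, and DESeq2 called 2, 2, 1 and 3. The median log2 fold change of the 10 genes was -0.20, -0.09, -0.11, 0.02 and 0.14 for desmosterol, DMHCA, MePipHCA, GW3965 and T0901317, beside all-gene medians between -0.00028 and 0.0015.

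**Figure D2:**
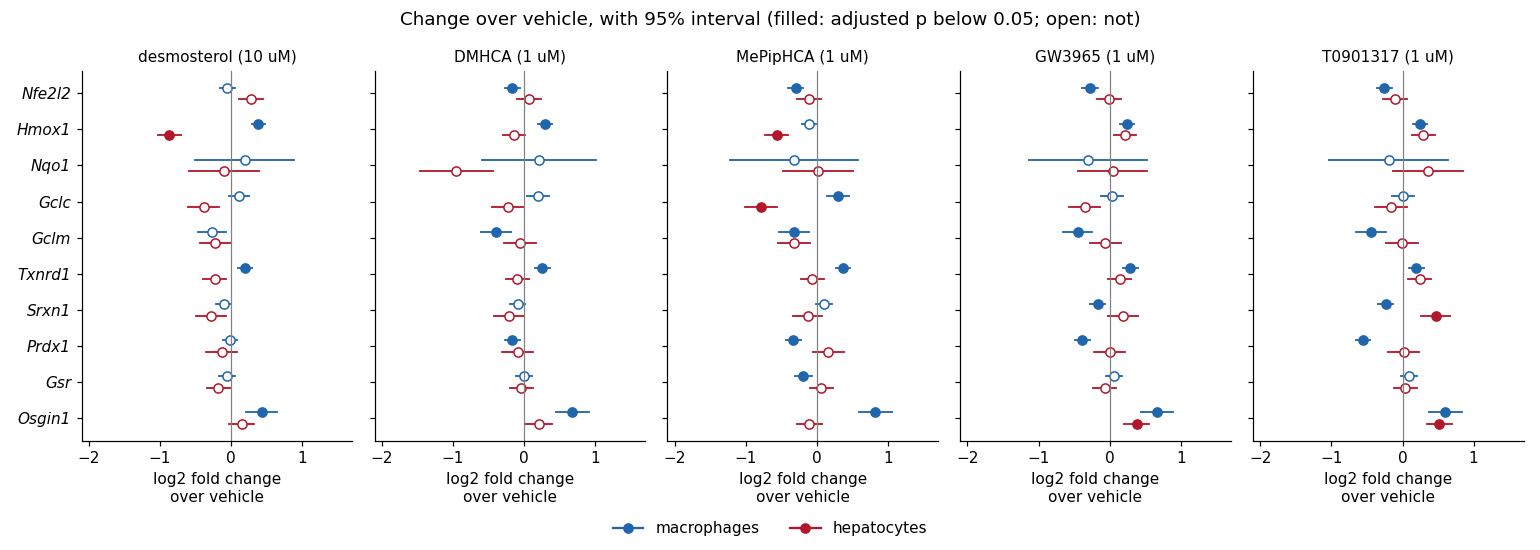
The log2 fold change over vehicle (x axis) of each gene (y axis) for the 5 ligands, with 95% intervals, in macrophages (blue) and hepatocytes (red); filled points had an adjusted p below 0.05. Osgin1 and Txnrd1 are filled to the right of 0 in macrophages for every ligand, and the leftmost filled points, Hmox1 with desmosterol at -0.87 and Gclc with MePipHCA at -0.78, are of hepatocytes.

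Nfe2l2 (chromosome 2, 75675519 to 75704641 in the mm10 build for macrophages, with ends that differ slightly in the hepatocyte table) encodes NRF2 itself. In macrophages its normalised level in CPM (counts scaled to library size) was 487, 445 and 441 in the vehicle libraries and 448, 423 and 451 with desmosterol. It was 397, 417 and 411 with DMHCA, 377, 365 and 375 with MePipHCA, 351, 367 and 412 with GW3965 and 383, 376 and 389 with T0901317. All 12 libraries of the latter 4 ligands lay below all vehicle libraries, while those of desmosterol overlapped vehicle. Nfe2l2 fell by 0.30 on the log2 scale with MePipHCA (SE 0.053, adjusted p = 1.66e-05), by 0.28 with GW3965 (adjusted p = 0.000108), by 0.26 with T0901317 (adjusted p = 0.000385) and by 0.16 with DMHCA (adjusted p = 0.0347). The DMHCA call was lost without any 1 of the 3 DMHCA libraries (adjusted p = 0.134, 0.0547 and 0.09) or without vehicle replicate 1 (0.214). In hepatocytes vehicle read 272 and 301 CPM, desmosterol 353 and 342, DMHCA 307 and 294.5, MePipHCA 268 and 261, GW3965 275 and 293, and T0901317 266 and 264. The 2 desmosterol libraries were the highest of the 12, but the log2 change of 0.28 (SE 0.083) was not called, at an adjusted p of 0.191; DESeq2 gave 0.0295.

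Hmox1 (chromosome 8, 75093618 to 75100593) encodes heme oxygenase-1, which opens the heme ring and releases iron, carbon monoxide and biliverdin. In macrophages the vehicle libraries read 411, 415 and 394 CPM. Desmosterol gave 544, 529 and 518 CPM, DMHCA 489, 527 and 479, GW3965 466, 485 and 487, and T0901317 489, 476 and 478, all above every vehicle library. MePipHCA stood alone with 398, 369 and 362 CPM, overlapping vehicle from below. Hmox1 rose by 0.38 on the log2 scale with desmosterol (1.3-fold, SE 0.048, adjusted p = 8.71e-08), 0.29 with DMHCA (adjusted p = 1.9e-05), 0.24 with GW3965 (adjusted p = 0.000297) and 0.24 with T0901317 (adjusted p = 0.00027). The MePipHCA difference was -0.11 (95% interval -0.21 to -0.01, adjusted p = 0.0682) and was called at -0.15 without MePipHCA replicate 1 (adjusted p = 0.0297) and at -0.12 when only MePipHCA and vehicle were fitted (0.0294).

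Hepatocytes gave Hmox1 a different order. Vehicle read 987 and 1036 CPM and desmosterol 544.5 and 561, the lowest of all. MePipHCA read 704 and 665 CPM, DMHCA 984 and 851, GW3965 1216 and 1132, and T0901317 1239 and 1233. Hmox1 fell by 0.87 with desmosterol (to 0.547 of vehicle, SE 0.079, adjusted p = 1.35e-07) and by 0.56 with MePipHCA (to 0.677, adjusted p = 3.82e-05). The values for DMHCA (-0.14, adjusted p = 0.974), GW3965 (0.22, 0.34) and T0901317 (0.29, 0.0725) were not called. DESeq2 called T0901317 (adjusted p = 0.00695), as did edgeR with no filter on low counts (0.0174) and with replicate numbers as a block (0.0488). Desmosterol therefore gave the highest macrophage level of Hmox1 and the lowest hepatocyte level among the 6 groups.

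Nqo1 (chromosome 8, 107388225 to 107403205) encodes a quinone reductase and is widely read as a marker of NRF2 activity. In macrophages it was near the limit of detection, with 4 to 40 counts a library and 0.581 to 2.67 CPM. The vehicle libraries alone covered 0.923, 2.5 and 1.44 CPM, and no ligand's difference was called. The 95% intervals of the log2 difference ran from -1.22 (MePipHCA) to 1.02 (DMHCA), so smaller changes were not detectable at this depth. In hepatocytes the 12 libraries held 60 to 219 counts. Vehicle read 13.45 and 9.07 CPM, desmosterol 12.2 and 9.37, MePipHCA 11.7 and 11.6, GW3965 13.4 and 10.3, and T0901317 14.5 and 15.0. DMHCA was lowest of all with 5.395 and 6.44 CPM, from 74 and 98 counts. The log2 difference of DMHCA from vehicle was -0.95 (95% interval -1.46 to -0.44), and it was not called, at an adjusted p of 0.707, in a comparison with 0 genes called overall.

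**Figure D3:**
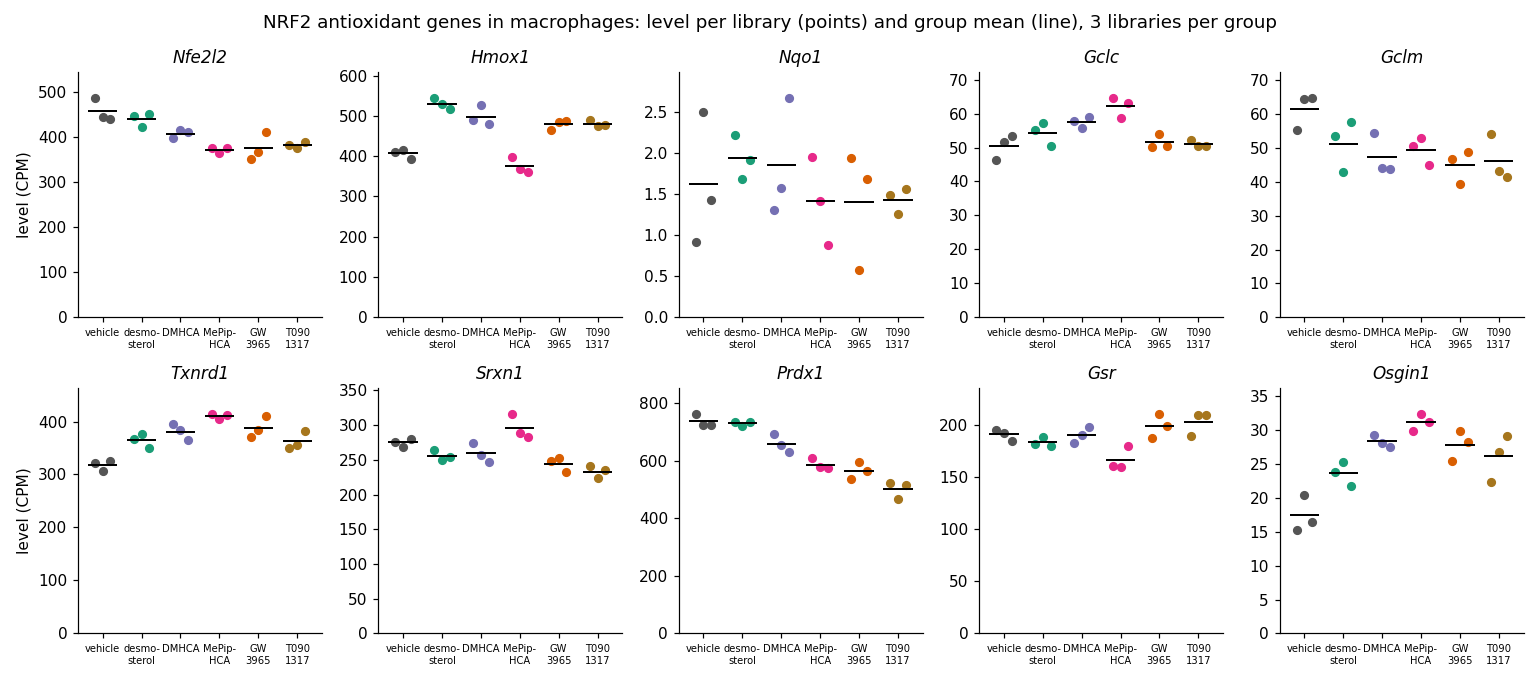
Normalised level (CPM, y axis from 0) of each of the 10 genes in the 18 macrophage libraries by group, with points for libraries and lines for means. Osgin1 rises from 17.4 CPM in vehicle to 31.2 with MePipHCA, Hmox1 is low in vehicle and MePipHCA, and Prdx1 steps down from 737 to 502 CPM with T0901317.

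The genes of glutathione synthesis did not move together in macrophages. Gclc (chromosome 9, 77754535 to 77794489) encodes the catalytic subunit of glutamate-cysteine ligase, the first enzyme of the path, and Gclm (chromosome 3, 122245557 to 122267215) its modifier subunit. Gclc read 46.3, 51.5 and 53.25 CPM in vehicle and 64.5, 58.7 and 63.1 with MePipHCA, which lay wholly above vehicle. It rose by 0.30 with MePipHCA (1.23-fold, SE 0.076, adjusted p = 0.00151), a call lost at 0.22 when all libraries were thinned to one depth (adjusted p = 0.0723). With the other ligands Gclc read 55.15, 57.3 and 50.6 CPM (desmosterol), 57.9, 55.7 and 58.9 (DMHCA), 50.1, 54.1 and 50.4 (GW3965) and 52.3, 50.4 and 50.3 (T0901317), with differences of 0.11, 0.19, 0.03 and 0.01 that were not called. Gclm read 55.2, 64.35 and 64.7 CPM in vehicle. With DMHCA it read 54.5, 44.0 and 43.9, with MePipHCA 50.7, 52.8 and 45.0, with GW3965 46.8, 39.4 and 48.9 and with T0901317 54.05, 43.1 and 41.4, all below vehicle, while desmosterol with 53.4, 42.8 and 57.7 overlapped it. Gclm fell by 0.45 with GW3965 (SE 0.10, adjusted p = 0.00115), 0.44 with T0901317 (adjusted p = 0.00181), 0.40 with DMHCA (adjusted p = 0.00695) and 0.33 with MePipHCA (adjusted p = 0.0124). The desmosterol value was -0.27 (adjusted p = 0.0618).

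Single libraries decided several of the Gclm calls. The T0901317 call was lost without T0901317 replicate 3 (-0.34, adjusted p = 0.0783) and the DMHCA call without DMHCA replicate 2 (-0.35, 0.0573) or replicate 3 (-0.34, 0.0855), or with thinned libraries (-0.33, 0.0516). The MePipHCA call was lost without MePipHCA replicate 3 (-0.24, 0.136), without vehicle replicate 2 (-0.29, 0.0556) or 3 (-0.29, 0.052), and with thinned libraries (-0.23, 0.116). Desmosterol was called with no filter on low counts (-0.27, 0.0143), without desmosterol replicate 3 (-0.36, 0.0185) and without vehicle replicate 1 (-0.34, 0.0276). It was also called with replicate numbers as a block (-0.28, 0.0434). In the reference annotation Gclm shares 244 exon bases with the pseudogene Gm6061 on its own strand and 296 with Gm17494 on the other, so its counts may hold reads of these.

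In hepatocytes Gclc was the gene of this pair that changed. It read 712 and 621 CPM in vehicle and 417 and 359 with MePipHCA, a fall of 0.78 (to 0.581 of vehicle, SE 0.11, adjusted p = 2.83e-05) that no alternative ended. Desmosterol read 558 and 463 CPM, DMHCA 620.2 and 518, GW3965 564 and 482, and T0901317 645 and 548. The differences of desmosterol (-0.39, adjusted p = 0.14), DMHCA (-0.23, 0.974), GW3965 (-0.35, 0.202) and T0901317 (-0.16, 0.57) from vehicle were not called. With no filter on low counts, Gclc was called for desmosterol (adjusted p = 0.00102) and GW3965 (0.0046), the latter also when only it and vehicle were fitted (0.0401). Both were also called with replicate numbers as a block (0.00611 for desmosterol and 0.014 for GW3965). Gclm read 142 and 136 CPM in vehicle, 107 and 130.2 with desmosterol, 137 and 129 with DMHCA, 116 and 106.5 with MePipHCA, 137 and 129.8 with GW3965 and 153 and 123 with T0901317. None was called in the full fit, with MePipHCA nearest at -0.32 (95% interval -0.54 to -0.10, adjusted p = 0.147), which was called when only those 2 groups were fitted (0.0257).

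Gsr (chromosome 8, 33653238 to 33698162) encodes glutathione reductase, which returns oxidised glutathione to its reduced form. In macrophages it read 195, 192.5 and 185 CPM in vehicle and 161, 159 and 179.5 with MePipHCA, below all vehicle libraries. It fell by 0.19 with MePipHCA (SE 0.058, adjusted p = 0.00897), a call lost without MePipHCA replicate 1 (-0.16, adjusted p = 0.0592) or 2 (-0.16, 0.0635). The other ligands spanned 179 to 210 CPM, with log2 differences from -0.06 to 0.09 that were not called. In hepatocytes its 12 libraries lay between 494 and 623 CPM and none of the 5 ligands was called.

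The thioredoxin branch held a gene that rose with every ligand in macrophages. Txnrd1 encodes the cytosolic thioredoxin reductase, a selenoprotein that keeps thioredoxin reduced. It read 322, 307 and 326 CPM in vehicle, 367, 377 and 351 with desmosterol and 394.5, 384 and 364 with DMHCA. With MePipHCA it read 413, 404 and 412 CPM, with GW3965 371, 385 and 409.7, and with T0901317 350.1, 355 and 383. All 15 ligand libraries lay above all 3 of vehicle, and MePipHCA was highest. Txnrd1 rose by 0.36 with MePipHCA (1.29-fold, SE 0.051, adjusted p = 1.67e-07), 0.29 with GW3965 (adjusted p = 3e-05), 0.26 with DMHCA (adjusted p = 0.000315), 0.20 with desmosterol (adjusted p = 0.00629) and 0.19 with T0901317 (adjusted p = 0.00664). Without vehicle replicate 2, the lowest vehicle library, the calls for desmosterol (0.17, adjusted p = 0.0641) and T0901317 (0.17, 0.0599) were lost, and the latter was also lost without T0901317 replicate 3 (0.15, 0.111).

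In hepatocytes Txnrd1 read 599.9 and 591 CPM in vehicle, 524.5 and 488 with desmosterol, 561 and 552 with DMHCA, 574 and 565 with MePipHCA, 685 and 631 with GW3965 and 745 and 666 with T0901317. No ligand was called: the differences were -0.23 with desmosterol (adjusted p = 0.327), -0.10 with DMHCA (0.981) and -0.06 with MePipHCA (0.841). They were 0.14 with GW3965 (0.665) and 0.24 with T0901317 (0.157). DESeq2 called T0901317 (adjusted p = 0.0289). The macrophage table counted Txnrd1 on a transcript that starts at chromosome 10, 82860341, and the hepatocyte table on one that starts at 82859206, next to the window printed above; both end at 82897724. Its CPM are therefore compared within a cell type only.

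Srxn1 (chromosome 2, 152105524 to 152111376) encodes sulfiredoxin, which repairs overoxidised peroxiredoxins. In macrophages it read 276, 269 and 280.1 CPM in vehicle, 264, 250.3 and 254 with desmosterol. DMHCA gave 275, 256.5 and 247 CPM and MePipHCA 315.5, 289 and 282. GW3965 gave 248, 253 and 233 CPM and T0901317 240.5, 223 and 235, all below vehicle. Srxn1 fell by 0.24 with T0901317 (SE 0.054, adjusted p = 0.00123) and by 0.17 with GW3965 (adjusted p = 0.02455). The GW3965 call was lost without GW3965 replicate 3 (-0.13, adjusted p = 0.168) or vehicle replicate 1 (-0.17, 0.0568) or 3 (-0.16, 0.0961). The MePipHCA value was 0.10 (95% interval -0.01 to 0.21, adjusted p = 0.14). In hepatocytes Srxn1 read 743 and 637 CPM in vehicle, 579.9 and 550 with desmosterol, 622 and 573 with DMHCA, 666 and 595 with MePipHCA, 818 and 756 with GW3965 and 1093 and 811 with T0901317. It rose by 0.46 with T0901317 (1.38-fold, SE 0.10, adjusted p = 0.0183), and this call rested on T0901317 replicate 1: without it the value was 0.24 (adjusted p = 0.413). It was also lost without vehicle replicate 2 (0.36, 0.335) and by DESeq2 (0.0545).

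Prdx1 (chromosome 4, 116685599 to 116700000) encodes a peroxiredoxin; reads of its processed copies elsewhere in the genome could have been counted with it. In macrophages it read 761, 725 and 725.5 CPM in vehicle and 733.5, 722 and 735 with desmosterol, which overlapped. DMHCA gave 691.5, 653 and 631, MePipHCA 608, 579 and 573, GW3965 535, 595 and 564, and T0901317 523, 468 and 514.5, all below vehicle. Prdx1 fell by 0.55 with T0901317 (to 0.682 of vehicle, SE 0.050, adjusted p = 1.02e-11), 0.38 with GW3965 (adjusted p = 8.45e-08), 0.33 with MePipHCA (adjusted p = 7.51e-07) and 0.16 with DMHCA (adjusted p = 0.022). The DMHCA call was lost without DMHCA replicate 2 (-0.16, adjusted p = 0.0724) or 3 (-0.13, 0.164), without vehicle replicate 1 (-0.14, 0.0986) and with thinned libraries (-0.15, 0.0597). In hepatocytes Prdx1 spanned 711 to 991 CPM over the 12 libraries, with log2 differences from vehicle of -0.14 to 0.16, and none was called.

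Osgin1 (chromosome 8, 119437162 to 119446256) encodes a growth inhibitor induced by oxidative stress. In macrophages it read 15.3, 20.5 and 16.5 CPM in vehicle, 23.8, 25.3 and 21.75 with desmosterol, and DMHCA gave 29.3, 28.1 and 27.5. With MePipHCA it read 29.9, 32.3 and 31.2 CPM, with GW3965 25.5, 29.8 and 28.3, and with T0901317 22.3, 26.8 and 29.2. Each of the 15 ligand libraries exceeded all 3 of vehicle. Osgin1 rose by 0.82 with MePipHCA (1.77-fold, SE 0.11, adjusted p = 1.33e-07), 0.68 with DMHCA (1.6-fold, adjusted p = 2.32e-05), 0.67 with GW3965 (1.59-fold, adjusted p = 1.17e-05), 0.60 with T0901317 (1.52-fold, adjusted p = 0.000103) and 0.43 with desmosterol (1.34-fold, adjusted p = 0.00509), and no alternative ended any of these 5 calls. In hepatocytes it read 789.6 and 815.5 CPM in vehicle, 843 and 934 with desmosterol, 1032 and 822 with DMHCA, 745 and 745 with MePipHCA, 1079 and 1009 with GW3965 and 1194 and 1104 with T0901317. The 2 MePipHCA libraries were the lowest of the 12 and those of the synthetic agonists, with DMHCA replicate 1, the highest. Osgin1 rose by 0.52 with T0901317 (1.43-fold, SE 0.088, adjusted p = 0.0012) and by 0.38 with GW3965 (1.3-fold, adjusted p = 0.0393). The GW3965 call was lost without any 1 of the 4 libraries compared: GW3965 replicate 1 (0.34, adjusted p = 0.329), GW3965 replicate 2 (0.43, 0.0951), vehicle replicate 1 (0.36, 0.196) or vehicle replicate 2 (0.40, 0.139).

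**Figure D4:**
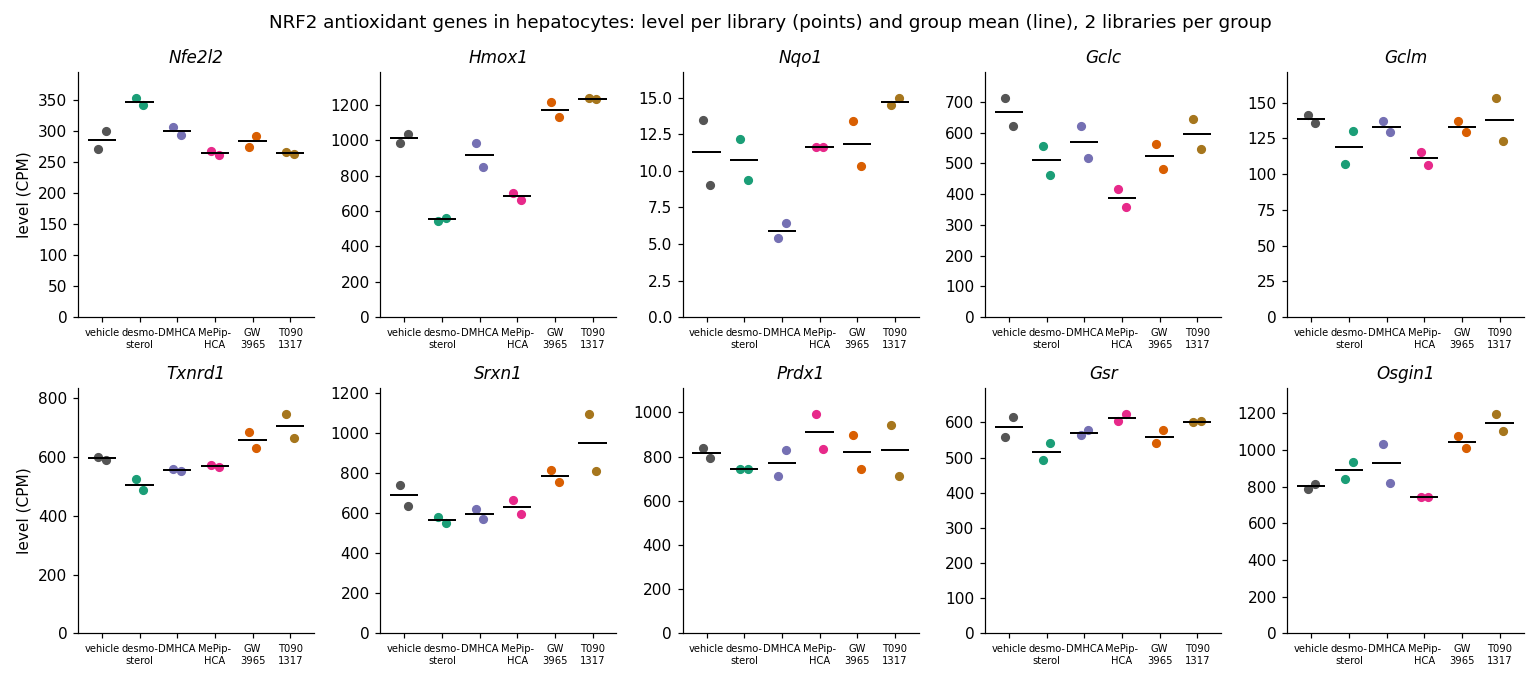
Normalised level (CPM, y axis from 0) of each of the 10 genes in the 12 hepatocyte libraries by group, with points for libraries and lines for means. Hmox1 is lowest with desmosterol (mean 553 CPM), Gclc with MePipHCA (388) and Nqo1 with DMHCA (5.92), and the 2 T0901317 libraries of Srxn1 stand far apart.

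Ligands given at the same dose of 1 uM were also set against each other, in 4 pairs per cell type. DMHCA and MePipHCA are cholenamides that differ in the amide, dimethyl in DMHCA and methylpiperidinyl in MePipHCA. In macrophages 4 of the 10 genes differed between them, where 22.9% of all genes did. Hmox1 was lower with MePipHCA by 0.41 (log2 difference -0.41, SE 0.050, adjusted p = 2.44e-08), the only 1 of the 4 that was called without every library in turn. Gsr (-0.19, adjusted p = 0.0191) and Prdx1 (-0.17, 0.0132) were lower and Srxn1 (0.19, 0.00948) was higher. The Gsr call was lost without DMHCA replicate 2 (-0.18, 0.0605) or 3 (-0.16, 0.1145) and MePipHCA replicate 1 (-0.16, 0.0955) or 2 (-0.16, 0.102), the Prdx1 call without DMHCA replicate 1 (-0.12, 0.121) and MePipHCA replicate 2 (-0.16, 0.0514) or 3 (-0.14, 0.0909), and the Srxn1 call without DMHCA replicate 3 (0.16, 0.0781) or MePipHCA replicate 1 (0.14, 0.106). The difference was not called for Gclm (0.07, 95% interval -0.16 to 0.30), Gclc (0.11, -0.05 to 0.28), Osgin1 (0.14, -0.10 to 0.38), Txnrd1 (0.11, 0.0028 to 0.21), Nfe2l2 (-0.13, -0.24 to -0.02) or Nqo1 (-0.54, -1.52 to 0.45). For Nfe2l2 it was called when only DMHCA and MePipHCA were fitted (-0.14, adjusted p = 0.0144).

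The same pair in hepatocytes differed in 4 genes, against 3.3% of all genes. Hmox1 was again lower with MePipHCA, by 0.42 (log2 difference -0.42, SE 0.078, adjusted p = 0.00113). Gclc was lower (-0.55, adjusted p = 0.00171), Osgin1 was lower (-0.31, 0.0411) and Nqo1 was higher (0.97, 0.0201). The Gclc call was lost without MePipHCA replicate 2 (-0.45, 0.0779). The Nqo1 call was lost without DMHCA replicate 1 (0.85, 0.196) or MePipHCA replicate 1 (0.96, 0.118) or 2 (0.97, 0.11). The Osgin1 call was lost without DMHCA replicate 1 (-0.14, 0.563) or MePipHCA replicate 1 (-0.32, 0.233) or 2 (-0.32, 0.202). With thinned libraries the Nqo1 (0.79, 0.166) and Osgin1 (-0.285, 0.0575) calls were also lost. Fitting only those 2 groups lost the Osgin1 call too (-0.32, 0.1045). Not called in the full fit were Nfe2l2 (-0.18, 95% interval -0.35 to -0.02), Gclm (-0.26, -0.48 to -0.05), Gsr (0.10, -0.06 to 0.27), Txnrd1 (0.03, -0.13 to 0.20), Srxn1 (0.08, -0.13 to 0.29) and Prdx1 (0.25, 0.03 to 0.46). Prdx1 was called with no filter on low counts (0.25, adjusted p = 0.0422).

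Between the synthetic agonists GW3965 and T0901317, none of the 10 genes was called in macrophages, where 0.0173% of all genes were, or in hepatocytes, where 0% were. In each cell type edgeR gave 1 of the 10 an unadjusted p under 0.05 and DESeq2 called 0; over all 13176 hepatocyte genes, 667 had an unadjusted p under 0.05 and DESeq2 called 0. The 1 in macrophages was Prdx1, higher with GW3965 by 0.17 (95% interval 0.07 to 0.27, adjusted p = 0.528), and the 1 in hepatocytes was Srxn1 (-0.28, -0.48 to -0.07, adjusted p = 0.925). The interval for Hmox1 in macrophages was -0.10 to 0.10 and for Osgin1 in hepatocytes -0.32 to 0.04.

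MePipHCA and T0901317 differed in 6 of the 10 genes in macrophages, against 25.9% of all genes. Srxn1 (0.34, adjusted p = 5.46e-06), Gclc (0.29, 0.00646), Prdx1 (0.22, 0.000722) and Txnrd1 (0.17, 0.011) were higher with MePipHCA, and Hmox1 (-0.36, 3.33e-07) and Gsr (-0.28, 0.00032) were lower. The Txnrd1 call was lost without T0901317 replicate 1 (0.15, 0.059), and the Gclc call with thinned libraries (0.21, 0.113). In hepatocytes 5 genes differed, against 6.05% of all genes, and all 5 were lower with MePipHCA: Hmox1 by 0.85 (-0.85, adjusted p = 1.2e-08), Osgin1 (-0.62, 2.15e-05), Gclc (-0.62, 0.000338), Srxn1 (-0.60, 0.000328) and Txnrd1 (-0.31, 0.0157). Gclm was not called there in the full fit (-0.32, adjusted p = 0.0771) but was with no filter on low counts (-0.31, 0.042). Gclc, Srxn1 and Txnrd1 were thus higher with MePipHCA than with T0901317 in macrophages and lower in hepatocytes, although the hepatocyte call for Txnrd1 was lost without MePipHCA replicate 1 (-0.32, 0.112) or 2 (-0.30, 0.144) or T0901317 replicate 1 (-0.23, 0.191).

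DMHCA and T0901317 differed in 1 gene in macrophages, against 5.12% of all genes: Prdx1 was higher with DMHCA (0.39, SE 0.051, adjusted p = 3.97e-07). In hepatocytes 4 genes differed, against 0.987% of all genes, and all were lower with DMHCA. They were Nqo1 (-1.31, SE 0.24, to 0.403 of the T0901317 level, adjusted p = 0.00263), Srxn1 (-0.67, 0.000231), Hmox1 (-0.43, 0.00191) and Txnrd1 (-0.34, 0.0245). Txnrd1 was lost without DMHCA replicate 2 (-0.33, 0.0632) or T0901317 replicate 1 (-0.26, 0.338). When only those 2 groups were fitted, Hmox1 (0.0659) and Txnrd1 (0.226) were lost. Osgin1 was not called in the full fit (-0.31, adjusted p = 0.0902). It was called by DESeq2 (0.0426) and by edgeR with no filter on low counts (0.00723).

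A joint fit of all 30 libraries tested each ligand for unequal changes over vehicle in the cell types. The tables were joined by gene symbol, so the differences for Txnrd1 compare changes counted on a different transcript in each cell type. Across the 5 ligands 13 such differences were called among the 10 genes, and Hmox1 and Txnrd1 held 3 each. With desmosterol 4 genes differed, against 2.53% of all genes: the change of Hmox1 was more positive in macrophages by 1.26 (SE 0.094, adjusted p = 1.69e-13), and those of Gclc (0.50, 0.0233) and Txnrd1 (0.44, 0.00359) were too, while that of Nfe2l2 was more negative (-0.33, 0.0449). DMHCA differed in 2 genes, against 2.75% of all genes, with Hmox1 at 0.42 (adjusted p = 0.0053) and Txnrd1 at 0.34 (0.0331). MePipHCA differed in 5, against 9.66%: Gclc by 1.10 (SE 0.14, adjusted p = 4.88e-08), Osgin1 by 0.94 (8.01e-06), Hmox1 by 0.46 (0.000476), Txnrd1 by 0.44 (0.000723) and Prdx1 by -0.47 (0.00734). T0901317 differed in 2, against 3.64%, with Srxn1 at -0.69 (adjusted p = 0.00015) and Prdx1 at -0.56 (0.00314). GW3965 differed in 0, against 3.11%, by edgeR's quasi-likelihood test, with 5 genes at an unadjusted p under 0.05 and 3 called by DESeq2 (Prdx1, Srxn1 and Nfe2l2); Prdx1 missed the threshold at -0.41 (adjusted p = 0.0517).

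Opposite calls within a ligand, a rise in one cell type and a fall in the other, were found for 3 genes. Hmox1 with desmosterol rose by 0.38 in macrophages and fell by 0.87 in hepatocytes. Gclc with MePipHCA rose by 0.30 in macrophages, a rise lost with thinned libraries (0.22, adjusted p = 0.0723), and fell by 0.78 in hepatocytes. Srxn1 with T0901317 fell by 0.24 in macrophages and rose by 0.46 in hepatocytes, a rise lost without T0901317 replicate 1. A shared call, the same direction in both cell types, was found for Osgin1 alone, which rose with T0901317 by 0.60 and 0.52 and with GW3965 by 0.67 and 0.38. The GW3965 rise in hepatocytes lost its call when any 1 of the libraries compared was left out. The differences of these Osgin1 changes were 0.10 (95% interval -0.20 to 0.39) with T0901317 and 0.26 (-0.03 to 0.56) with GW3965. Hmox1 moved by similar amounts with the synthetic agonists in both cell types, with differences of -0.0033 (95% interval -0.19 to 0.19) for GW3965 and -0.04 (-0.23 to 0.15) for T0901317, although neither was called in hepatocytes.

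**Figure D5:**
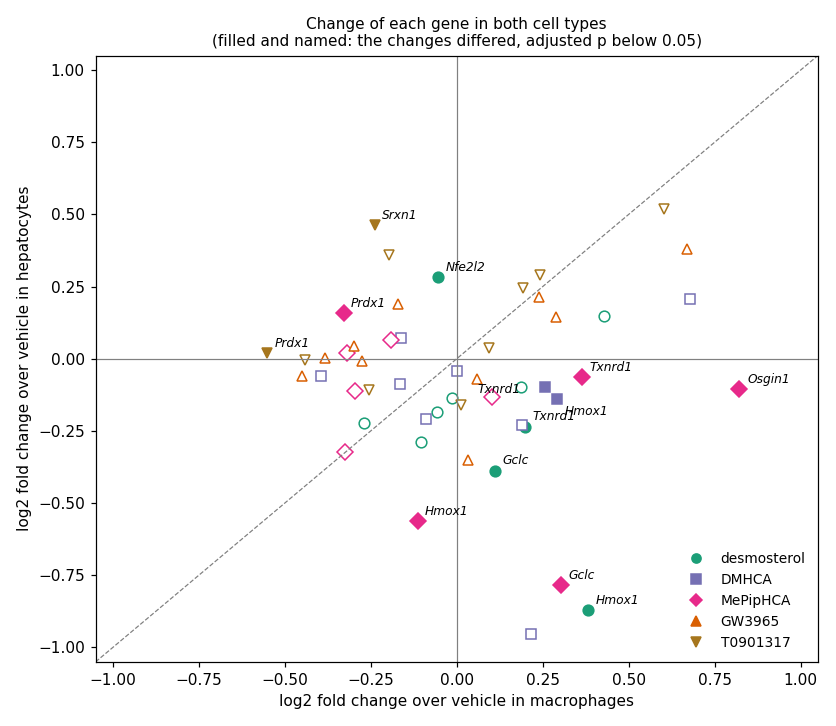
The log2 fold change over vehicle in hepatocytes (y axis) against that in macrophages (x axis) for the 10 genes and 5 ligands, with a dashed line of equal change; the 13 filled, named points are those whose change differed between the cell types. Hmox1 with desmosterol and Gclc with MePipHCA lie at the lower right, and Srxn1 with T0901317 at the upper left.

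Some of these differences hung on single libraries. The Nfe2l2 difference for desmosterol was lost without any 1 of 8 libraries (all but macrophage vehicle replicate 3 and hepatocyte vehicle replicate 2 of the 10), with adjusted p-values from 0.0529 to 0.276. The Gclc difference for desmosterol was lost without macrophage desmosterol replicate 1 (adjusted p = 0.05255) or 2 (0.0691), macrophage vehicle replicate 1 (0.077), hepatocyte desmosterol replicate 2 (0.182) or hepatocyte vehicle replicate 1 (0.185). The Hmox1 difference for DMHCA was lost without hepatocyte DMHCA replicate 2 (0.30, 0.0635). Txnrd1 with DMHCA was lost without macrophage DMHCA replicate 1 (0.0877) or 2 (0.0725), macrophage vehicle replicate 2 (0.0971), either hepatocyte DMHCA library (0.0539 and 0.0706) or either hepatocyte vehicle library (0.148 and 0.0582). The Prdx1 differences were lost without hepatocyte MePipHCA replicate 1 (-0.34, 0.116) and without hepatocyte T0901317 replicate 1 (-0.33, 0.1435).

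Other genes of the pathway were read from lists that, like the 10 genes, were drawn up with earlier results of these data known. Among 25 further NRF2 target genes, 23 were tested in macrophages. Desmosterol raised 2 and lowered 4, DMHCA 2 and 8, MePipHCA 3 and 13, GW3965 3 and 10, and T0901317 3 and 9, and their median log2 changes of -0.09, -0.13, -0.31, -0.195 and -0.12 stood beside all-gene medians near 0. The shares of all genes raised and lowered were 4.93% and 4.57% (desmosterol), 5.8% and 5.9% (DMHCA), 17.2% and 18.3% (MePipHCA), 6.54% and 6.69% (GW3965) and 6.29% and 6.55% (T0901317). DESeq2 called 4, 10, 13, 13 and 12 of the 23 for the ligands in that order. Falls were led by Slc7a11, the cystine importer that feeds glutathione synthesis (-1.15 with T0901317, adjusted p = 1.64e-10; -0.69 with GW3965; -0.59 with DMHCA), Tkt of the pentose phosphate pathway (-0.82 with MePipHCA, adjusted p = 1.2e-16), Akr1b8, an aldo-keto reductase (-0.83 with GW3965, -0.80 with T0901317, -0.75 with MePipHCA), and the glutathione transferase Gstm1 (-0.57 with MePipHCA). Rises were led by Ephx1, an epoxide hydrolase (0.98 with GW3965 and 0.76 with T0901317), and Idh1, which makes NADPH (0.83 with GW3965, 0.73 with T0901317 and 0.58 with DMHCA). In hepatocytes all 25 were tested: 2 fell with desmosterol, led by Slc7a11 (-0.86, adjusted p = 7.47e-05), 5 fell with MePipHCA, led by G6pdx (-0.52, adjusted p = 0.0297) and Idh1 (-0.48, 0.0014), Pgd rose with T0901317 (0.43, 0.0077), and edgeR called 0 with DMHCA (2 at an unadjusted p under 0.05, 0 by DESeq2) and 0 with GW3965 (7 and 1). Of all hepatocyte genes, 0.159% fell with desmosterol, 1.38% fell with MePipHCA and 0.486% rose with T0901317. With GW3965 0.364% rose and 0.114% fell, and with DMHCA 0% did either.

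The list of 11 regulators and partners of NRF2 had 5 genes that rose and 0 that fell with MePipHCA in macrophages, where 17.2% of all genes rose and 18.3% fell, and DESeq2 called 4 of the 11. They were the small MAF genes Mafk (0.60, adjusted p = 1.24e-06) and Mafg (0.54, 2.08e-05), Sqstm1, whose product p62 binds KEAP1 (0.59, 8.23e-14), the related factor Nfe2l1 (0.36, 1.88e-07) and Rbx1, a part of the KEAP1 ubiquitin ligase (0.26, 0.0413), named after its value was seen to complete the 5. Sqstm1 and Nfe2l1 fell instead with desmosterol (-0.27 and -0.17) and DMHCA (-0.21 and -0.20). By edgeR 0 of the 11 were called with GW3965 (3 at an unadjusted p under 0.05) or T0901317 (2) in macrophages, and DESeq2 called 0 with either. In hepatocytes edgeR called 0 with each ligand, with 0 to 3 at an unadjusted p under 0.05, and DESeq2 called 2 with T0901317 and 0 with the other ligands. Among 10 genes of heme and iron handling, Hmox2, the constitutive heme oxygenase, rose in macrophages by 0.32 with desmosterol, 0.39 with DMHCA, 0.39 with GW3965 and 0.31 with T0901317, and the iron exporter Slc40a1 fell with MePipHCA (-1.29, adjusted p = 2.01e-13) and rose with DMHCA (0.48), GW3965 (0.55) and T0901317 (0.66). Beside the same shares of all genes, from 4.57% with desmosterol to 18.3% with MePipHCA, this list had 1 rise and 1 fall for desmosterol, then 2 and 2 (DMHCA), 0 and 4 (MePipHCA), 2 and 3 (GW3965) and 2 and 2 (T0901317), and DESeq2 called 2, 4, 3, 5 and 4 of the 10. Of 15 further antioxidant genes, 0 were called with desmosterol (3 at an unadjusted p under 0.05, 0 by DESeq2), 1 rose with DMHCA, 2 rose and 4 fell with MePipHCA, 2 rose and 2 fell with GW3965, and 1 rose and 1 fell with T0901317. DESeq2 called 1, 5, 3 and 2 of the 15 with the latter 4 ligands. Of all genes, 5.8% rose and 5.9% fell with DMHCA, and 17.2% and 18.3% did with MePipHCA. The shares were 6.54% and 6.69% with GW3965 and 6.29% and 6.55% with T0901317. In a list of 15, the counts of 1 with DMHCA and T0901317 and the 2 rises with MePipHCA were near these shares. Gpx1, a glutathione peroxidase, was raised by 4 ligands (0.36 with GW3965) and Cat, catalase, lowered by 3 (-0.53 with MePipHCA). In hepatocytes edgeR called 0 genes of either list. There the heme and iron list had 1 or 2 genes at an unadjusted p under 0.05 with each ligand and 1 DESeq2 call, with T0901317, and the other list had 1 to 6 and 2 DESeq2 calls, with MePipHCA.

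Depth and other cell types moved with some groups. The macrophage libraries of vehicle and desmosterol held 9.75 to 15.7 M (mega) counts, and those of the other 4 ligands 3.86 to 11.45 M; hepatocyte libraries held 6.63 to 18.6 M. With all libraries thinned to one depth, 3, 4, 5, 7 and 7 of the 10 genes were called in macrophages for desmosterol, DMHCA, MePipHCA, GW3965 and T0901317, all among those called at full depth. Macrophage markers summed to 16030 to 16130 CPM in vehicle macrophages and 12840 to 13060 with MePipHCA, and Adgre1 had no row in that table. Hepatocyte markers summed to at most 0.461 CPM in macrophages and 25500 to 32620 in hepatocytes, where macrophage markers summed to 281 to 431, mainly Cd68 and Cd14. Stromal markers such as collagens summed to 244 to 309 CPM in vehicle macrophages, 144 to 206 with DMHCA and 80.1 to 97.2 with MePipHCA, with 6 of 6 tested markers lowered by each of these. Of all macrophage genes, 5.9% fell with DMHCA and 18.3% fell with MePipHCA. With MePipHCA 4 of 5 mesothelial markers also fell in macrophages, and 4 of 8 hepatocyte markers fell in hepatocytes, where 1.38% of all genes fell. The part of these cells in the changes of the 10 genes was not tested, and in bulk RNA fewer cells of a type and less RNA per cell cannot be told apart.

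Across the libraries of a cell type, members differed in which genes tracked them. These correlations of log2 CPM describe 18 macrophage or 12 hepatocyte libraries that share groups and depth differences. Txnrd1 and Osgin1 correlated at 0.88 in macrophages and Nfe2l2 and Prdx1 at 0.81, while in hepatocytes Txnrd1 correlated at 0.95 with Srxn1 and 0.87 with Hmox1. Over all tested genes, those nearest to Hmox1 included Igf1 (r = 0.94) and Arhgap19 (0.90) in macrophages and Kif1a (0.96), Ccl2 (0.95) and Npc2 (0.92) in hepatocytes. For Srxn1 the 3 nearest were Slc31a2 (0.89), Oit3 (0.87) and Slc7a11 (0.87) in macrophages and Txnrd1 (0.95), Atp6v1b2 (0.92) and Scpep1 (0.91) in hepatocytes. For Gclm they were Ampd3 (0.83), Lilrb4 (0.80) and Fnbp1 (0.80) in macrophages and Psmb1 (0.92), Fbxo25 (0.89) and Fetub (0.87) in hepatocytes. For Nqo1, at few counts, they were Zfp449 (0.73), Cpne2 (0.73) and Chst1 (0.645) in macrophages, and Gk (0.87), Neat1 (0.87) and Slc23a2 (0.87) in hepatocytes.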

How the data were processed

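The labels describe polyadenylated RNA in strand-marked libraries; the submitters' processing notes name STAR, HOMER and the mm10 build, and the strand option of the counting is not given in the sources used here. The deposited files are raw read counts per gene and library, 1 table per cell type, and RPKM values that the authors made per transcript length and library size; no step beyond these is recorded in the file headers. All count columns matched a sample (0 unmapped). The counts were tested with edgeR 4.0.16 (R 4.3.3): genes passing filterByExpr with a minimum count of 10, TMM normalisation, 1 mean per group, and the quasi-likelihood test, with Benjamini-Hochberg adjustment over all tested genes and a threshold of 0.05. The macrophage fit held 18 libraries and 11544 genes, the hepatocyte fit 12 and 13176, and the joint fit of both 30 and 13700. Printed CPM use the TMM library sizes; correlations use log2 CPM with a prior count of 2. RPKM served only for levels between genes, with no test.

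Every member is named. Of each other list up to 4 genes per comparison were named, those called with the largest log2 change, and the 3 best-correlated genes were named for Hmox1, Gclm, Srxn1 and Nqo1, except 1 that is not reported here. The members and lists were chosen with earlier results of these data known. Alternatives were RLE normalisation, no filter, DESeq2 1.42.0, a replicate block, only the groups compared, leaving out each library, and thinning to 1 depth, the last chosen after seeing the data. Where nothing says that replicates were separate cultures or animals, the p-values rest on sample-to-sample spread alone, and this spread may be technical. Intervals are 95%.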

Additional observations from a re-analysis of the deposited data

Results flagged for a closer look

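Changes over vehicle that differed between the cell types were picked out by the joint edgeR quasi-likelihood fit, where a positive value means a higher log2 change in macrophages than in hepatocytes. With desmosterol these were Hmox1 (1.26), Gclc (0.50), Txnrd1 (0.44) and Nfe2l2 (-0.33). With DMHCA they were Hmox1 (0.42) and Txnrd1 (0.34). With MePipHCA they were Gclc (1.10), Osgin1 (0.94), Hmox1 (0.46), Txnrd1 (0.44) and Prdx1 (-0.47). With T0901317 they were Srxn1 (-0.69) and Prdx1 (-0.56). The 13 values compare cells that also differed in medium and in the date of their titles, which cannot be told apart from cell type. Txnrd1 was also counted on a different transcript in each cell type.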

How the results depend on the processing

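With RLE normalisation the number of the 10 genes called stayed within 1.5 times in all comparisons but the GW3965 difference between cell types, and no call of a single gene changed direction under any alternative run. That GW3965 count, 0 in the full analysis, became 1 with RLE, 2 with no filter on low counts, 3 with DESeq2, 3 with the replicate block, 1 with thinned libraries and 0 to 1 when each library was left out. In hepatocytes desmosterol against vehicle, 1 in the full analysis, had 3 with no filter, 2 with DESeq2 and 2 with the replicate block. GW3965 against vehicle, also 1, had 2 with no filter, 2 with the replicate block, 2 when only those groups were fitted, and 0 without any 1 of its libraries. MePipHCA against DMHCA (4) had 2 with thinned libraries and 1 to 4 with a library left out, and DMHCA against T0901317 (4) had 2 when only those groups were fitted. The desmosterol difference between cell types (4) had 2 with thinned libraries and 2 to 4 with a library left out. Leaving out 1 library gave 3 to 6 for DMHCA against vehicle and 2 to 3 for MePipHCA against DMHCA in macrophages, 0 to 1 for DMHCA and 1 to 2 for T0901317 against vehicle in hepatocytes, and 0 to 3 for the DMHCA and 1 to 2 for the T0901317 difference between cell types. The cause of these shifts was not tested. With no filter, both the genes that share the adjustment and the genes used to estimate the spread change. Leaving out a library lowers the sample number. Over single genes, leaving out a library kept 1314 results, lost 72 calls and gained 14; thinning lost 9 and gained 1; DESeq2 lost 1 and gained 9. The replicate block lost 0 calls and gained 8 of 230: Gclm with desmosterol in macrophages (-0.28, adjusted p = 0.0434), in hepatocytes Gclc with desmosterol (-0.39, 0.00611) and GW3965 (-0.35, 0.014) and Hmox1 with T0901317 (0.29, 0.0488), and between cell types Gclc with DMHCA (0.0133) and Gclc (0.035), Srxn1 (0.0158) and Prdx1 (0.0388) with GW3965. The check used does not settle whether replicate numbers pair the samples. Deviations of same-numbered macrophage libraries correlated weakly, between -0.0708 and 0.142 (median 0.0262), with 2 of 45 pairs over 0.1. For macrophage libraries of different numbers the median was -0.0131, and 14 of 18 libraries correlated best with their own number of the 3. The full fits held no term for such pairing. In hepatocytes 0 of 30 same-numbered pairs passed 0.1. With 2 libraries per group the deviations mirror each other, so these pairs repeat each value and are not 30 separate ones. Depth limits Nqo1 in macrophages most, at 4 to 40 counts a library.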
